A study of Mus musculus with 26 samples.

Results

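The genes described here code for parts of the axoneme, the microtubule core of the sperm tail, and for the proteins that assemble its dynein arms. They were chosen by name from the deposited gene table: the protein-coding genes whose symbols start with *Cfap*, *Drc*, *Rsph*, *Tekt*, *Dnaaf*, *Dnai* or *Dnal* followed by a number, together with *Dnali1*, *Ccdc39* and *Ccdc40*. The rule finds 67 of the 51124 genes of the table, 21789 of which are protein-coding. It takes 7 intermediate and light chains of dynein but none of the heavy chains (*Dnah* genes).

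Total RNA of whole adult testes was sequenced after depletion of ribosomal RNA in 6 libraries, each from a different mouse. N1 and N2 are wild type, N3 and N4 are *10xPerf*, and N5 and N6 are *10xBulge*. Both knock-in lines were made with CRISPR/Cas9 at the *Ythdc2* locus of B6D2F1/J hybrid embryos, and in both the 3′UTR of this gene holds 10 sites for piR-A, a pachytene piRNA. The sites are fully complementary to the piRNA in *10xPerf* and have mismatches opposite its positions 10 and 11 in *10xBulge*. The 20 libraries of MILI- and MIWI-bound small RNAs of the series, among them those of the lines with 1 site, were not analysed here.

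The axoneme is a ring of doublet microtubules around a central pair of single microtubules. Proteins inside and along the doublets brace them, dynein arms bend them, and radial spokes, the central apparatus and the nexin-dynein regulatory complex time the bending. In the testis many of these genes are transcribed already in meiotic cells, and the tail itself is built in spermatids, the haploid cells that follow meiosis.

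Values are normalised read counts, the unit in which the authors deposited the table, and correspond to about 41.1 to 61.6 M reads per library. All 67 genes had at least 10 normalised counts in at least 2 libraries and were tested, among 23782 genes, with limma on log2(value + 1). A gene is called at an adjusted p under 0.1 (Benjamini-Hochberg over all 23782 genes). All fold changes are given as log2 values with that offset of 1, so those of genes with few counts come out too small. *Ythdc2* itself, in which the sites were placed, had 827 and 2412 in the wild-type libraries, 1334 and 1136 in the *10xPerf* and 1202 and 2458 in the *10xBulge* libraries. The 18 spermatid markers examined, such as protamine genes, all fell in *10xBulge* (limma), to between 0.0540% and 8.92% of their wild-type mean with a median of 0.602%. Of 18 spermatocyte markers, genes of meiotic cells, 2 fell and 2 rose, with a median of 103% and a range of 31.3% to 306%. Of 11 markers of spermatogonia, the cells that enter meiosis, 2 rose (*Kit* at 329.5% and *Lin28a* at 230.4%) and 1 fell (*Nanos3* at 32.1%), with a median of 173%. Many markers of somatic cells were higher at the same time, where 11.4% of all tested genes were called higher. Of the Sertoli cell markers 7 of 10 rose, of the Leydig cell markers 5 of 7 and of the macrophage markers 5 of 6, while 0 of 5 peritubular markers were called. In bulk testis, fewer cells of a type and less RNA per cell cannot be told apart, and the part of these shifts in the values below was not tested.

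In *10xBulge*, 28 of the 67 axoneme genes were lower than in wild type and 0 were higher (limma), where 23.0% of all tested genes were called lower and 11.4% higher. At an unadjusted p under 0.05, 32 were lower and 0 higher, where 5835 of the 23782 tested genes were lower and 3313 higher. Among protein-coding genes, 16.9% were called lower. Over all genes, scaling to equal library totals changed the split from 5466 lower and 2712 higher to 4792 lower and 5777 higher. The median log2 fold change of the 67 genes was -1.07, against -0.03 for all tested genes, and 64 of the 67 values were negative. Relative to their wild-type means, the *10xBulge* means ran from 0.392% to 119% with a median of 48.98%. Both *10xBulge* libraries lay below both wild-type libraries for 45 of the 67 genes, an arrangement seen in 33.2% of all tested genes. Of the axoneme genes, 64 lay above the highest spermatid marker, and 54 of those reached the lowest spermatocyte marker or more. The lowest spermatocyte markers, *Syce2* at 31.3% and *Syce3* at 47.9%, were themselves called lower (limma).

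The following 3 classes are used here as descriptions of the level that remained. Lost genes were called lower with a *10xBulge* mean under 10% of wild type, reduced genes were called lower with 10% or more, and the rest were not called lower. The lost class holds 4 genes, where 12.4% of all tested genes and 7.30% of the protein-coding ones met the same definition. The reduced class holds 24 genes, at 10.7% to 43.998% of wild type, and 39 genes were not called lower, at 38.004% to 119%. None of these libraries is staged, so the classes say what remained in testes with the spermatid markers at a median of 0.602%, and not when a gene is first transcribed.

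**Figure D1:**
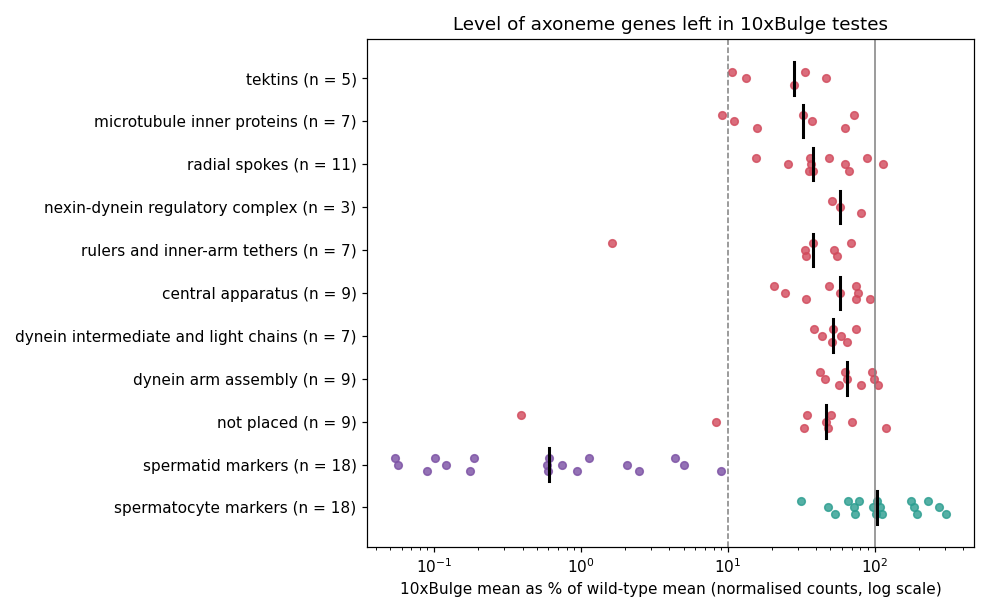
Mean of the 2 *10xBulge* libraries as a percent of the mean of the 2 wild-type libraries (log axis), with a point per gene, grouped by place in the axoneme, and black bars for group medians. The dashed line marks 10% and the solid line 100%. Axoneme genes lie between 0.392% and 119%, most of them between the 18 spermatid markers (median 0.602%) and the middle of the 18 spermatocyte markers (median 103%).

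The 4 lost genes differed in how much remained. *Cfap97d1*, which is needed for the sperm flagellum, was the lowest, with 1392 and 1731 in the wild-type libraries, 2610.0 and 1914 in the *10xPerf* and 9.73 and 2.52 in the *10xBulge* libraries. The *10xBulge* mean was 0.392% of wild type (log2 fold change -7.98 ± 0.56 SE, limma adjusted p = 1.15e-05), and N6 was under the value that 3 reads give, 2.90. *Cfap100*, whose product belongs to the tether of an inner dynein arm, had 719 and 553 in the wild-type libraries, 1111 and 999 in the *10xPerf* and 14.6 and 5.94 in the *10xBulge* libraries. It was at 1.61% (log2 fold change -5.92 ± 0.49 SE, limma adjusted p = 2.66e-05). For these 2 genes the gap to wild type was far wider than the spread within either genotype.

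The other 2 lost genes lay close to the limit of 10%. *Cfap58*, a coiled-coil protein of the sperm flagellum, had 1493 and 3856 in the wild-type libraries, 4385 and 2568 in the *10xPerf* and 216 and 232 in the *10xBulge* libraries (log2 fold change -3.42 ± 0.52 SE, limma adjusted p = 0.00104). The wild-type pair spread widely but neither library came near the *10xBulge* pair, which stood at 8.37%. *Cfap77*, a protein inside the doublet microtubules, had 994 and 811 in the wild-type libraries, 1024 and 943 in the *10xPerf* and 105 and 59.1 in the *10xBulge* libraries and stood at 9.08%, just inside the limit. Just outside it were *Tekt2* at 10.7% and *Cfap53* at 11.1%, both counted as reduced. Without N5, 8 genes met the definition of lost, and with libraries scaled to equal totals 2 did.

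**Figure D2:**
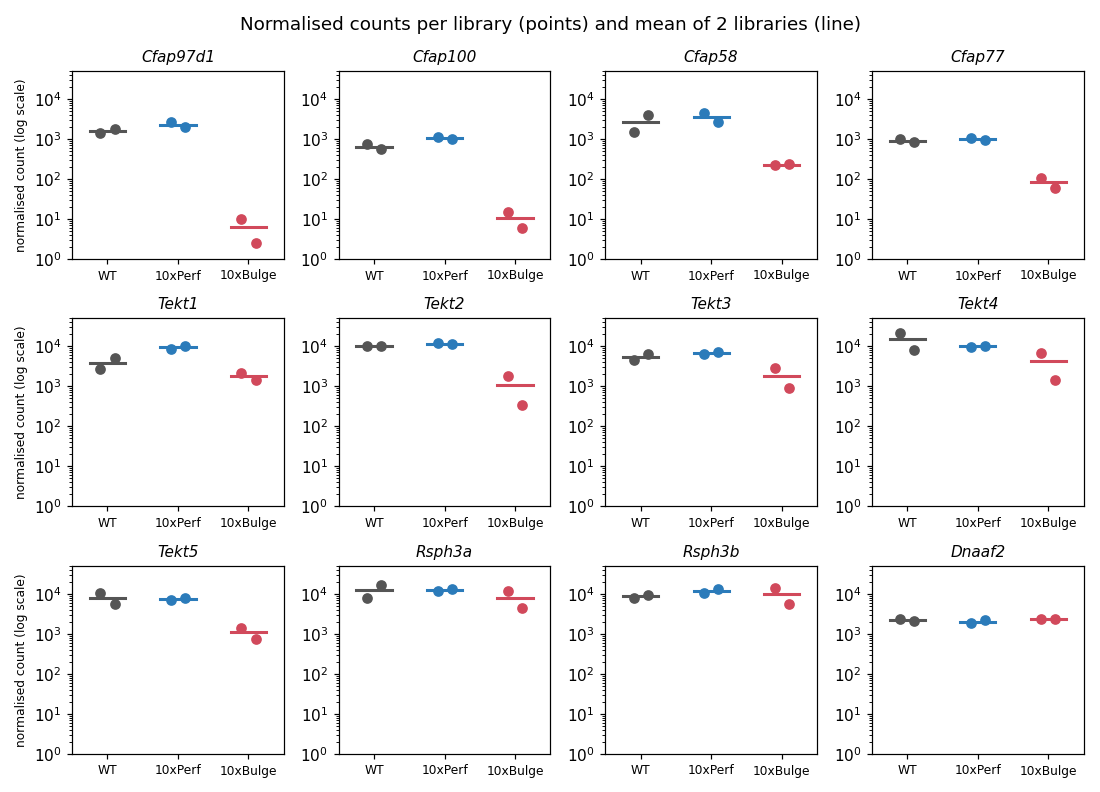
Normalised counts (log axis) of 12 axoneme genes in the 6 libraries, with a point per library and a line at the mean of each genotype. *Cfap97d1* and *Cfap100* drop to between 2.52 and 14.6 in *10xBulge*, *Tekt2* differs between N5 and N6 (1801 and 338), and *Dnaaf2* lies between 1845 and 2379 in all 6 libraries.

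Tektins are filament proteins that run along and inside the doublet microtubules. They had the lowest median log2 fold change of the structural groups with a known place (-2.06), and 4 of the 5 fell. This and the counts of the other groups below stand beside 23.0% of all tested genes called lower (16.9% of protein-coding ones). No group count was tested against these shares. *Tekt2*, one of the most abundant members per length, had 10064 and 9978 in the wild-type libraries, 12109.6 and 11073 in the *10xPerf* and 1801 and 338 in the *10xBulge* libraries. The wild-type pair nearly coincided while N6 held far less than N5 (log2 fold change -3.68 ± 0.67 SE, limma adjusted p = 0.00329). *Tekt5* fell to 13.4%, from 10599 and 5480.2 in wild type to 1399 and 756 in *10xBulge*. *Tekt4* had 21336 and 8180.2 in the wild-type libraries, 9417 and 10384 in the *10xPerf* and 6862 and 1457 in the *10xBulge* libraries. N1 was far above N2, N5 reached most of N2, and the call (limma adjusted p = 0.0653) was lost without N1, N3, N4 or N6. *Tekt3* fell to 33.5% (log2 fold change -1.78, limma adjusted p = 0.0398) and lost its call without N1, N2, N3, N4 or N6. *Tekt1* was not called, with 2705 and 5007 in the wild-type libraries, 8476 and 10377 in the *10xPerf* and 2165 and 1416 in the *10xBulge* libraries (log2 fold change -1.07, 95% confidence interval -2.08 to -0.06, limma adjusted p = 0.112). Both *10xBulge* values of *Tekt1* were below both wild-type values, and its *10xPerf* values were the highest.

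Microtubule inner proteins sit in the lumen of the doublets. Of the 7 genes here, 5 fell, with a group median of -1.61 on the log2 scale. Beside *Cfap77*, *Cfap53* fell to 11.1%, *Cfap126* to 15.9%, *Cfap45* to 32.6% and *Cfap161* to 37.7%. *Cfap53* had 555 and 2142 in the wild-type libraries, 1643 and 1303 in the *10xPerf* and 145 and 154 in the *10xBulge* libraries, with the widest gap between wild-type libraries in the group. The other 2 genes were not called. *Cfap52* had 2756 and 4285 in the wild-type libraries, 3721 and 4683 in the *10xPerf* and 2966 and 1485 in the *10xBulge* libraries, so that N5 lay within the wild-type range. *Cfap20*, the inner junction protein that closes the doublet, had 3498 and 3164 in the wild-type libraries, 2769.8 and 3572 in the *10xPerf* and 2447 and 2385 in the *10xBulge* libraries. Its libraries were close to each other in every genotype and it stood at 72.6% (log2 fold change -0.46, 95% confidence interval -1.31 to 0.38).

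Radial spokes reach from the doublets to the central apparatus. Of 11 spoke genes, 6 fell, and the group median was -1.37. *Rsph14* was the lowest, with 1046 and 521 in the wild-type libraries, 734 and 852 in the *10xPerf* and 170.5 and 72.6 in the *10xBulge* libraries and 15.5% of wild type. *Rsph10b* fell to 25.9%, *Cfap206* to 35.5%, *Cfap61* to 36.4%, *Rsph9* to 36.7% and *Cfap91* to 38.2%. *Cfap206*, among the most abundant members per length, had 11399 and 23787 in the wild-type libraries, 26928 and 24856 in the *10xPerf* and 7402 and 5100.3 in the *10xBulge* libraries. Its wild-type libraries were far apart, with N2 above N1, and both were above the *10xBulge* pair.

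Among the spoke genes that were not called is *Rsph1*, the most abundant of them per length. *Rsph1*, a protein of the spoke head, had 9733 and 15573 in the wild-type libraries, 17421 and 17842 in the *10xPerf* and 14901 and 7559 in the *10xBulge* libraries and stood at 88.8%. N5 lay near the higher wild-type library and N6 below both. *Rsph6a*, the spoke head protein of sperm, had 15953 and 8570.4 in the wild-type libraries, 8899.8 and 9783 in the *10xPerf* and 12711 and 2812 in the *10xBulge* libraries, with a wide gap between N5 and N6. Among the alternatives tried it was called lower only without N5 (log2 fold change -2.06, limma adjusted p = 0.0146). *Rsph3a* had 8016 and 16079.5 in the wild-type libraries, 11658 and 13440.1 in the *10xPerf* and 11674 and 4356 in the *10xBulge* libraries. Its neighbour in sequence *Rsph3b* had 7868 and 9260.5 in the wild-type libraries, 10727 and 12890.3 in the *10xPerf* and 14034 and 5559 in the *10xBulge* libraries. The transcripts of this pair share 59.4% of the 31-base words of *Rsph3a* and 58.5% of those of *Rsph3b*, so the split of reads between them is uncertain. *Rsph4a*, the spoke head protein of motile cilia, was barely detected, with 4.97 and 17.6 in the wild-type libraries, 27.9 and 28.6 in the *10xPerf* and 7.28 and 3.76 in the *10xBulge* libraries.

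Rulers set the spacing along the doublet, and tethers hold the inner dynein arms. In the group of molecular rulers and inner-arm tethers, 3 of 7 genes fell, among them *Cfap100*. *Cfap43* and *Cfap44*, partners in a tether, fell to 34.2% and 33.6%. *Cfap43* had 7935 and 8496 in the wild-type libraries, 11056 and 9052 in the *10xPerf* and 2455 and 3169 in the *10xBulge* libraries. *Cfap44* had 3985 and 5818 in the wild-type libraries, 4394 and 3309 in the *10xPerf* and 1442 and 1848 in the *10xBulge* libraries. For both, the *10xBulge* values lay below all other libraries. *Ccdc39* and *Ccdc40*, which form the ruler that sets the repeat of the spokes, were not called. *Ccdc39* had 3287 and 7137 in the wild-type libraries, 8840.5 and 3909 in the *10xPerf* and 1255 and 2707 in the *10xBulge* libraries, with wide gaps inside all 3 genotypes, and stood at 38.004%, the lowest percentage among genes not called lower (limma adjusted p = 0.114). *Ccdc40* had 4051 and 5907 in the wild-type libraries, 6583 and 5054 in the *10xPerf* and 4018 and 2885 in the *10xBulge* libraries, at 69.3%. In *Ccdc39* and *Ccdc40* alike, both *10xBulge* values lay below both wild-type values, in *Ccdc40* by little.

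The last 2 of this group were also not called. *Cfap57* had 3983 and 7555 in the wild-type libraries, 7704 and 8297 in the *10xPerf* and 3585 and 2493 in the *10xBulge* libraries. Both *10xBulge* values of *Cfap57* were below both wild-type values. *Cfap73* had 349 and 134 in the wild-type libraries, 205 and 211 in the *10xPerf* and 177 and 90.9 in the *10xBulge* libraries, with N1 high and N5 between the wild-type libraries. In the nexin-dynein regulatory complex, which links neighbouring doublets, 0 of 3 genes were called (limma, 1 at an unadjusted p under 0.05). *Drc1* had 2575 and 2852 in the wild-type libraries, 3544 and 3062 in the *10xPerf* and 1782 and 1019 in the *10xBulge* libraries, with both *10xBulge* libraries below wild type (limma adjusted p = 0.106). *Drc7* had 3367 and 3308 in the wild-type libraries, 3555 and 3899 in the *10xPerf* and 3002 and 858 in the *10xBulge* libraries. *Drc3* had 1538 and 2952 in the wild-type libraries, 3415 and 3874 in the *10xPerf* and 2101 and 1536 in the *10xBulge* libraries. For *Drc7* N5 was just below wild type and N6 far below, while both *10xBulge* values of *Drc3* fell within or at the edge of the wild-type range.

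The central apparatus surrounds the central pair of microtubules. Of its 9 genes, 3 fell, with a group median of -0.85, where 23.0% of all tested genes were called lower. *Cfap221* had 980.0 and 1572 in the wild-type libraries, 1416 and 1222 in the *10xPerf* and 325 and 201 in the *10xBulge* libraries and fell to 20.6% (log2 fold change -2.28, limma adjusted p = 0.00427). *Cfap69* fell to 24.5%, from 6956 and 11435 to 1617 and 2894. *Cfap47*, one of the least abundant members per length, had 700.2 and 764 in the wild-type libraries, 1302 and 783 in the *10xPerf* and 125 and 374 in the *10xBulge* libraries. Here N6 held more than N5, and the call (limma adjusted p = 0.0458) was lost without N1, N2, N3, N4 or N5.

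The 6 other central apparatus genes were not called and stood at 49.1% to 93.7%. *Cfap70* had 3296 and 6916 in the wild-type libraries, 9117 and 9725 in the *10xPerf* and 2442 and 2568 in the *10xBulge* libraries. *Cfap99* had 773 and 852 in the wild-type libraries, 1018 and 957 in the *10xPerf* and 605 and 333 in the *10xBulge* libraries. For these 2 genes both *10xBulge* libraries were below wild type. *Cfap74* had 3591 and 4303 in the wild-type libraries, 5851 and 5055 in the *10xPerf* and 3096 and 2765 in the *10xBulge* libraries, again without overlap but with a smaller gap. *Cfap54*, a large protein of a central pair projection, had 3334 and 5433 in the wild-type libraries, 5751 and 4979 in the *10xPerf* and 3669 and 3061 in the *10xBulge* libraries. *Cfap65* had 19767 and 13492 in the wild-type libraries, 18779.9 and 13463 in the *10xPerf* and 16851 and 8181 in the *10xBulge* libraries. In both, N5 lay between the wild-type libraries. *Cfap46* had 2189 and 3404 in the wild-type libraries, 6638 and 5541 in the *10xPerf* and 2902 and 2339 in the *10xBulge* libraries, both *10xBulge* values lay between those of wild type, and its 95% confidence interval (-0.98 to 0.85) did not reach -1. Whether *Cfap46* lay above or below wild type changed with the scaling, from -0.07 to 0.32 with equal library totals and 0.13 when centred on the spermatocyte genes.

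Intermediate and light chains are the non-motor subunits of the dynein arms. Of 7 genes, 2 fell, where 23.0% of all tested genes were called lower, and the group median was -0.93. *Dnali1*, a light intermediate chain of the inner arms, had 6158 and 6334 in the wild-type libraries, 6357 and 6166 in the *10xPerf* and 4183 and 1313 in the *10xBulge* libraries (log2 fold change -1.41, limma adjusted p = 0.0841). The call was lost without any library but N5, and without N6 the log2 fold change was -0.58 (limma adjusted p = 0.367). *Dnal4* had 6143 and 5488 in the wild-type libraries, 3812 and 5095 in the *10xPerf* and 2633 and 1846 in the *10xBulge* libraries and fell to 38.5%. *Dnai1* and *Dnai2*, the intermediate chains of the outer arm, were not called. *Dnai1* had 1614 and 4305 in the wild-type libraries, 4134 and 3470.0 in the *10xPerf* and 2001 and 1053 in the *10xBulge* libraries. *Dnai2* had 5631 and 4054 in the wild-type libraries, 3808 and 4889 in the *10xPerf* and 4719 and 990.4 in the *10xBulge* libraries, with N5 inside the wild-type range and N6 far below it. *Dnai3* had 2427 and 4467 in the wild-type libraries, 4565 and 4609 in the *10xPerf* and 2619 and 1883 in the *10xBulge* libraries. *Dnai4* had 1755 and 2916 in the wild-type libraries, 4084 and 3157 in the *10xPerf* and 972 and 1447 in the *10xBulge* libraries. *Dnal1* had 888 and 1243 in the wild-type libraries, 1329 and 1271 in the *10xPerf* and 816 and 765 in the *10xBulge* libraries. Of these 3, *Dnai4* and *Dnal1* had both *10xBulge* libraries below wild type.

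Dynein arm assembly factors fold and pre-assemble the arms in the cytoplasm and are not built into the axoneme. Of the 9 genes, 1 fell, where 23.0% of all tested genes were called lower. The group median, -0.50, was the nearest to 0 of the groups. *Dnaaf3* had 6656 and 4057 in the wild-type libraries, 3825 and 4221 in the *10xPerf* and 2910.3 and 1616 in the *10xBulge* libraries and fell to 42.2% (log2 fold change -1.26, limma adjusted p = 0.0692), a call lost without N1, N3, N4 or N6. *Dnaaf1*, the most abundant member per length, had 47227 and 40625 in the wild-type libraries, 34326 and 41499 in the *10xPerf* and 42115 and 7886 in the *10xBulge* libraries. N5 lay within the wild-type range and N6 far below it, which gave a wide interval (log2 fold change -1.27, 95% confidence interval -2.84 to 0.31). Without N5 *Dnaaf1* was called lower at -2.47 (limma adjusted p = 0.00220).

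The other assembly factors were not called, and some lay near their wild-type level. *Dnaaf2*, which acts with heat shock proteins, had 2312 and 2119 in the wild-type libraries, 1845 and 2166 in the *10xPerf* and 2379 and 2292 in the *10xBulge* libraries, at 105%. Of its 31-base words 39.3% occur in transcripts of other genes. *Cfap298* had 3179.8 and 3007 in the wild-type libraries, 4197 and 4463 in the *10xPerf* and 4044 and 2100.1 in the *10xBulge* libraries. *Dnaaf6* had 285 and 605 in the wild-type libraries, 531 and 418 in the *10xPerf* and 295 and 562 in the *10xBulge* libraries. The wild-type and *10xBulge* values of both genes overlapped. *Dnaaf5* had 6071 and 4594 in the wild-type libraries, 2351 and 4346 in the *10xPerf* and 5233 and 3390.3 in the *10xBulge* libraries. *Dnaaf4*, of whose words 57.7% are shared with another gene, had 433 and 1173 in the wild-type libraries, 1042 and 1092 in the *10xPerf* and 507 and 498 in the *10xBulge* libraries. Both *10xBulge* values of *Dnaaf4* and 1 of *Dnaaf5* lay between the wild-type ones. *Cfap300* had 3912 and 3641 in the wild-type libraries, 2298 and 3334 in the *10xPerf* and 2072 and 2841 in the *10xBulge* libraries, with both *10xBulge* libraries below wild type. *Dnaaf6b* was near the limit of detection, with 18.5 and 31.8 in the wild-type libraries, 51.3 and 41.7 in the *10xPerf* and 11.6 and 11.6 in the *10xBulge* libraries.

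The 9 remaining genes were given no place in the axoneme here, and 4 of them fell. Beside *Cfap97d1* and *Cfap58* these were *Cfap157*, at 33.2% with 473 and 91.2 in *10xBulge*, and *Cfap299*, at 34.7% with 474 and 419. *Cfap20dc* had the highest percentage of all members, 119%, with 376 and 495 in the wild-type libraries, 595 and 518 in the *10xPerf* and 599 and 439 in the *10xBulge* libraries. *Cfap36* had 3504 and 5566 in the wild-type libraries, 9379.7 and 5976 in the *10xPerf* and 2502 and 3826 in the *10xBulge* libraries. *Cfap97* had 9197 and 21174 in the wild-type libraries, 24563 and 19706 in the *10xPerf* and 6294 and 8341 in the *10xBulge* libraries, and N2 was above the other wild-type library by more than N1 was above *10xBulge*. *Cfap97d2* had 219 and 183 in the wild-type libraries, 268 and 141 in the *10xPerf* and 122 and 65.0 in the *10xBulge* libraries. *Cfap410*, a ciliary base protein that also occurs outside motile cilia, had 3386 and 2018 in the wild-type libraries, 1219 and 1618 in the *10xPerf* and 1949.7 and 776 in the *10xBulge* libraries. The *10xBulge* values of *Cfap410* and *Cfap97d2* were below both wild-type values, without a call.

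**Figure D3:**
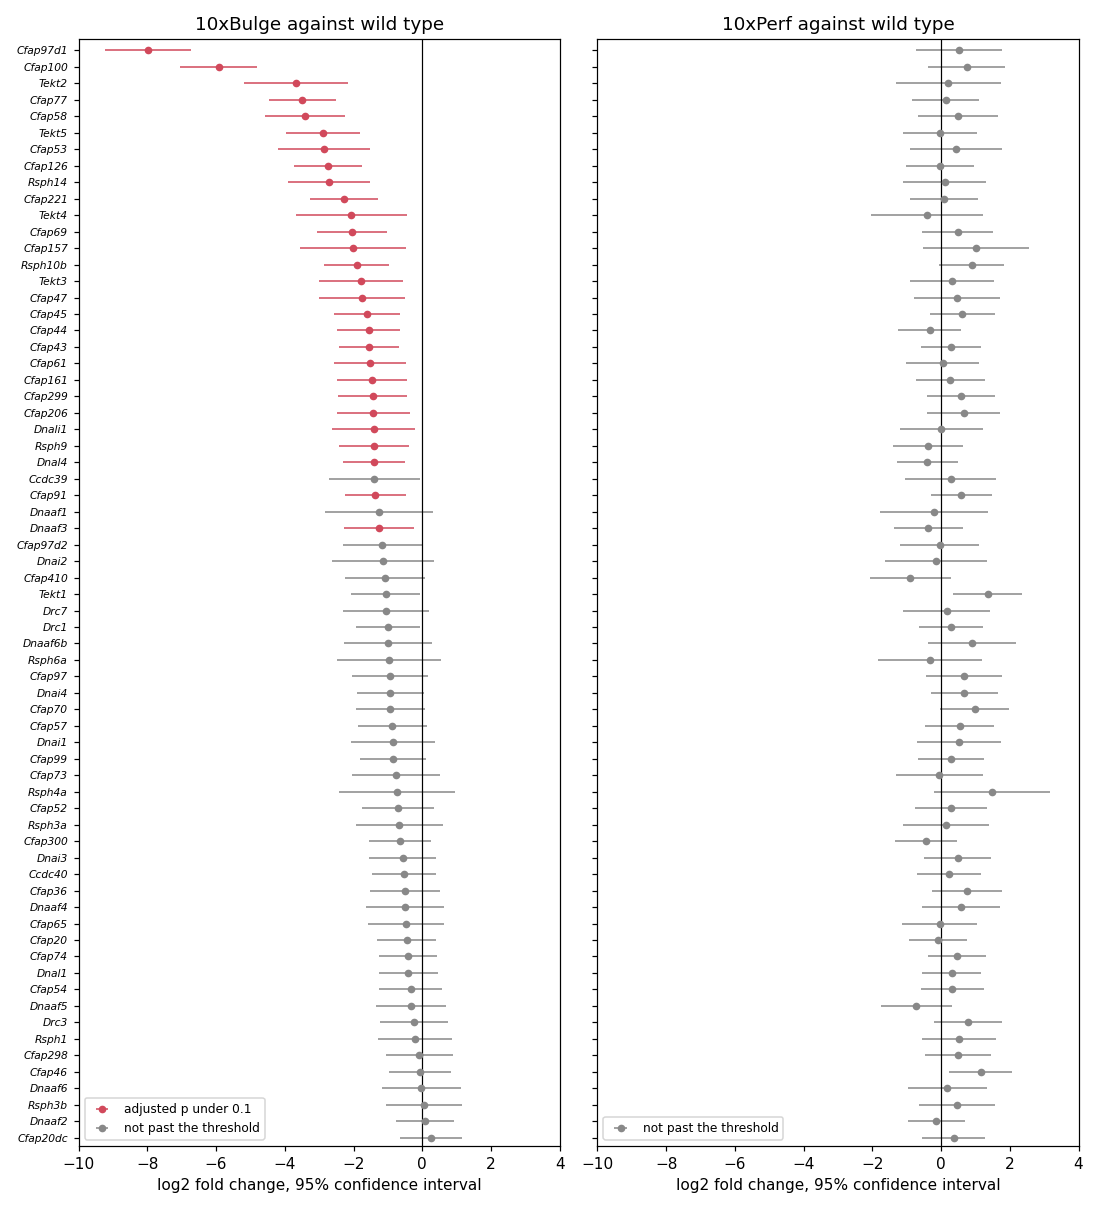
Log2 fold changes of the 67 axoneme genes with 95% confidence intervals, in *10xBulge* against wild type (left, sorted) and *10xPerf* against wild type (right, same order), with called genes in red. The 28 called genes are all on the left and all negative, and on the right the values lie between -0.90 and 1.47 with 0 calls.

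Not being called is not the same as being unchanged. Of the 39 genes not called lower, 17 had both *10xBulge* libraries below both wild-type libraries. The 33.2% given above for all tested genes includes genes called lower, so it is not a like share for these 39. The share among uncalled genes of the whole table was not computed. For 36 of the 39 the 95% confidence interval reached -1 or less on the log2 scale, and it stayed above -1 for *Dnaaf2*, *Cfap46* and *Cfap20dc*. With 2 libraries per genotype the median standard error was 0.45, so the intervals are wide, and changes inside them are not excluded. Some of these genes were called lower under other scalings and filters. With the upper quartile these were *Drc1* and *Tekt1*. With the GC trend removed they were *Ccdc39*, *Cfap97*, *Cfap410*, *Dnai4*, *Drc1* and *Tekt1*. With the filter of 10 in every library it was *Ccdc39*. The call lower held under all 15 other scalings, filters, fits and left-out libraries tried, apart from the filter of 10 in every library, for 14 of the 28 genes: *Cfap43*, *Cfap44*, *Cfap53*, *Cfap58*, *Cfap69*, *Cfap77*, *Cfap97d1*, *Cfap100*, *Cfap126*, *Cfap221*, *Rsph10b*, *Rsph14*, *Tekt2* and *Tekt5*. Without N1 the call was lost by *Cfap47*, *Cfap61*, *Cfap157*, *Dnaaf3*, *Dnal4*, *Dnali1*, *Rsph9*, *Tekt3* and *Tekt4*, and without N2 by *Cfap45*, *Cfap47*, *Cfap91*, *Cfap157*, *Cfap161*, *Cfap206*, *Cfap299*, *Dnali1* and *Tekt3*. Without N6 it was lost by *Cfap61*, *Cfap157*, *Cfap161*, *Cfap206*, *Dnaaf3*, *Dnali1*, *Rsph9*, *Tekt3* and *Tekt4*, and without N3 or N4 by 8 or 9 genes, all of them among those just named. Gained calls were *Cfap70*, *Cfap97* and *Tekt1* without N1, *Ccdc39* without N6, and *Cfap97d2*, *Cfap99*, *Cfap410*, *Dnaaf1*, *Dnai2*, *Drc1*, *Drc7*, *Rsph3a*, *Rsph6a* and *Tekt1* without N5, where *Cfap47* lost its call.

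The *10xBulge* libraries differed from each other in these genes. N5 was above N6 for 52 of the 67, and the median log2 ratio of N5 to N6 was 0.61. The ratio was higher for genes with a higher GC content (Spearman's rho = 0.66, Pearson's r = 0.70 across the 67 genes, which are not independent replicates and share libraries), and a like relation held between N1 and N2 (rho = 0.63, r = 0.59). The log2 fold change itself had a rho of 0.04 with GC content. The widest ratio, 2.42 on the log2 scale, was that of *Dnaaf1*. Leaving out N5 raised the number of genes called lower from 28 to 37, and leaving out N6 lowered it to 20. Removing the GC trend from each library gave 34 genes called lower, which included all 28.

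**Figure D4:**
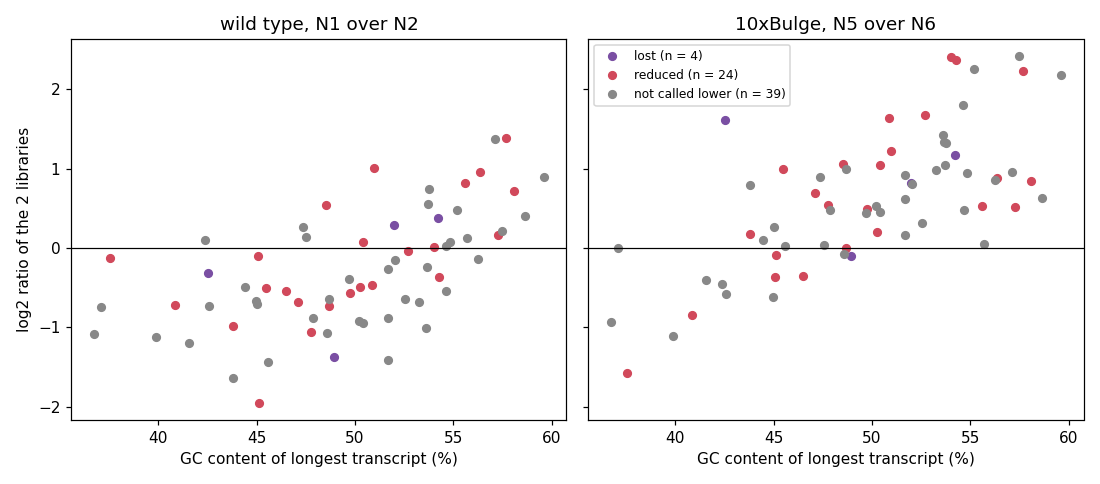
Log2 ratio of the libraries of a genotype against the GC content of the longest transcript, with a point per axoneme gene, in wild type (N1 over N2, left) and *10xBulge* (N5 over N6, right). In both genotypes the ratio is higher for GC-rich genes, and N5 exceeds N6 in 52 of 67 genes, among lost, reduced and uncalled genes alike.

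Levels can be compared between genes only per length. In wild type the mean per kilobase of the longest transcript was highest for *Dnaaf1* (15571 normalised counts per kilobase), followed by *Rsph1* (10624), *Tekt4* (9608), *Cfap206* (7833) and *Tekt2* (6499). It was lowest for *Rsph4a* (3.09), *Dnaaf6b* (16.7), *Cfap97d2* (61.0), *Cfap47* (77.8) and *Cfap20dc* (162). Of the 5 most abundant genes, *Tekt2*, *Tekt4* and *Cfap206* fell in *10xBulge* and the other 2 were not called. Of the 5 least abundant, *Cfap47* fell. *Rsph4a* and *Dnaaf6b* have close relatives, *Rsph6a* and *Dnaaf6*, that were far more abundant in these testes. Of the 31-base words of *Dnaaf6b*, 5.41% occur in *Dnaaf6*.

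In *10xPerf*, 0 of the 67 genes were lower and 0 higher than in wild type (limma), where 0.492% of all tested genes were called lower and 0.467% higher, 0.959% in all. At an unadjusted p under 0.05, 0 were lower and 2 higher, where 667 of the 23782 tested genes were lower and 781 higher. These 2 were *Tekt1* (log2 fold change 1.35, 95% confidence interval 0.34 to 2.36, limma adjusted p = 0.522) and *Cfap46* (1.15, 0.24 to 2.06, 0.595). The median log2 fold change was 0.28, with 49 of 67 values positive and a range from -0.90 in *Cfap410* to 1.47 in *Rsph4a*. That median rested on the scaling and on single libraries, from 0.12 without N1 to 0.78 when the libraries were centred on the spermatocyte genes, which moved the median of all genes to 0.52.

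Against *10xPerf*, 38 of the 67 genes were lower in *10xBulge* and 0 higher (limma, and 0 higher at an unadjusted p under 0.05), where 24.1% of all tested genes were called lower and 12.9% higher. Over the 23782 tested genes, 3547 were higher at an unadjusted p under 0.05. This comparison uses the same *10xBulge* libraries as the comparison with wild type, so it is no second test of them. All 4 lost genes, 21 of the 24 reduced ones and 13 of the 39 others were called. *Tekt1*, not called against wild type, was lower here (log2 fold change -2.42, limma adjusted p = 0.00333). *Cfap70* (-1.91, 0.0116) and *Dnai4* (-1.60, 0.0232) were too, whereas *Dnaaf2* (0.22, 0.689) and *Cfap20dc* (-0.11, 0.864) were not. Without N3 the number was 16, without N4 24 and without N5 44.

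Axoneme genes outside the naming rule were listed for comparison. Of 61 listed symbols 51 were found in the gene table, and all of those were tested. The others were absent under the symbol listed, so the list counts names and not separate genes. Of the 51, 32 were lower in *10xBulge* and 0 higher (limma), and the median log2 fold change was -1.50. Over all tested genes, 23.0% were called lower, 11.4% higher and 12.4% met the definition of lost. The lost ones were 8: *Saxo1*, *Spaca9*, *Fbxl13*, *Iqca*, *Ropn1*, *Dydc2*, *Spag6* and *Efcab1*. By structure, 9 of 13 microtubule inner proteins, 6 of 7 proteins of the nexin-dynein regulatory complex, 6 of 8 spoke proteins, 5 of 8 central pair proteins and 3 of 5 docking proteins of the outer arm fell. Of the 10 assembly factors 3 fell, with a median of -0.80. In the nexin-dynein regulatory complex the listed genes and the *Drc* genes gave different counts, 6 of 7 against 0 of 3, and that difference was not tested. The 0 depends on the setting. *Drc1*, at a limma adjusted p of 0.106, was called lower with upper-quartile scaling (0.0683) and with the GC trend removed (0.0545). *Spag6* and its paralogue *Spag6l*, central pair proteins, were at 7.24% and 95.1% of wild type.

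Transcription factors known to act on axoneme genes were also examined, and 7 of 10 fell (limma), where 23.0% of all tested genes were called lower. *Foxj1*, a regulator of motile cilia genes, had 8557 and 6131 in the wild-type libraries, 4330.2 and 4251 in the *10xPerf* and 949.6 and 329 in the *10xBulge* libraries. *Rfx2*, a regulator of spermatid and cilia genes, had 34157 and 25068 in the wild-type libraries, 21869 and 16720.4 in the *10xPerf* and 14112 and 7395 in the *10xBulge* libraries. *Sox30* had 11418 and 9145 in the wild-type libraries, 10699 and 8060.1 in the *10xPerf* and 2919 and 2429.9 in the *10xBulge* libraries. In each of the 3 both *10xBulge* values were below all other libraries. *Rfx1*, *Rfx3*, *Rfx4* and *Crem* fell as well, to 9.90%, 17.1%, 18.2% and 26.9%. *Mybl1*, the master regulator of meiotic genes and pachytene piRNA precursors, was not called, with 2152 and 5109.7 in the wild-type libraries, 5351 and 4226 in the *10xPerf* and 2498 and 4859 in the *10xBulge* libraries. *Taf7l* (112%) and *Tcfl5* (67.2%) were not called either.

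The multiciliated cells of the efferent ducts also carry axonemes, and epididymal tissue lies next to the testis. The epididymal markers were all under 10 normalised counts, with *Lcn5* at 0 and a summed level of 1.83 to 26.5 per library. Of the 6 markers of multiciliated epithelium, *Mcidas*, *Sntn* and *Cdhr3* were under 10 in every library, and 3 were tested. Of those *Deup1* fell to 7.34%, and *Ccno* (78.1%) and *Cdhr4* (54.8%) were not called. The summed level of the 6 was 8182 to 8385 in wild type, 10588 to 11657 in *10xPerf* and 2290.0 to 2637 in *10xBulge*. Most of that sum was *Deup1* and *Cdhr4*. *Deup1* had 3618 and 5453 in wild type and 328 and 338 in *10xBulge*, and *Cdhr4* had 4177 and 2680 and then 2062 and 1695. Which cells these transcripts came from was not tested.

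Motifs of these regulators were looked for, with both strands read, from 250 bases before to 50 after each transcription start in RefSeq of GRCm38.p6, a different build from the one the counts were made on. Of the 67 genes, 51 had such a window, with 58 windows in all. The X-box of RFX factors was in 0 of the 58, against 0.387% of all 32851 windows, and the CRE of CREM (TGACGTCA) in 0, against 1.79%. At shares this low, 58 windows are too few for 0 matches to show that these motifs are rarer here. A MYB site (AACNGTT, which reads the same on both strands) was in 7 windows of 6 genes, 12.1% of the 58 and 4.45% of all windows, where 2 windows of *Tekt2* hold the same site. The first part of an X-box, which overlaps the full motif and is the run in capitals in the last lines below, was in 3 windows of 2 genes, 5.17% against 0.563%, where 2 windows of *Cfap74* hold the same site. These are matches of letters and not binding sites, and the motifs were chosen with the values known. The stretches of 30 bases below are those of genes described above, with the motif in capitals, to show that the MYB letters occur in genes that fell and in genes that were not called.
*Tekt2*, reduced, chr4:126325816-126325845 (- strand): ttgtcagtgtaAACCGTTgatcaaaactaa
*Tekt4*, reduced, chr17:25471347-25471376 (+ strand): caccacagattAACCGTTtctgccgtccca
*Cfap47*, reduced, chrX:79517371-79517400 (- strand): cgtgggattccAACCGTTggttcctagtgc
*Cfap20*, not called lower, chr8:95434882-95434911 (- strand): aaggaaccggaAACCGTTctttctgcggca
*Dnaaf2*, not called lower, chr12:69198609-69198638 (- strand): tggtgaaattaAACAGTTaataagataaag
*Cfap74*, not called lower, chr4:155409193-155409222 (+ strand): gcagccttccGTTGCCATGGagctgcgcgc
*Cfap97d2*, not called lower, chr8:13705856-13705885 (+ strand): ggcctgggtgCCATGGCAACcgtcacatga
The first 5 hold the MYB site, and the last 2 the part of the X-box, which in *Cfap97d2* is read on the other strand. The sixth gene with a MYB site was *Dnaaf3*, reduced in *10xBulge*.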

How the data were processed

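The authors quantified single-end reads on Ensembl transcripts of GRCm39 with salmon, using its correction for GC content, and deposited per gene and library the DESeq2-normalised counts, a signal that is not whole reads. The table also holds the authors' mean over libraries, log2 fold changes and adjusted p-values, which were deposited as well and not used. Only 17.6% of the genes above 0 were whole multiples of a single step in all libraries (tolerance 0.001), so read counts were not recovered, and count tests were not run. Depth was estimated from that step at 41.1 to 61.6 M reads per library, where 3 reads correspond to 2.73 to 3.63 normalised counts, which covers counting error only.

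The fit covered the 23782 genes that reached 10 normalised counts in 2 or more libraries. It used limma (version 3.58.1, under R 4.3.3) on log2(value + 1), over all 6 libraries, modelling each genotype and a mean-variance trend. Calls use a Benjamini-Hochberg adjusted p under 0.1, the threshold of the study. The fit was tested on simulated data with known changes, in the comparison of *10xBulge* with wild type. It called 65% of the genes given a log2 change of -4 and 8% of those given -2. Of its calls, 2.67% were genes left unchanged. Most falls of 2 on the log2 scale were thus not called in those data. The axoneme genes and the gene lists were chosen with earlier results of these data known, and the structural groups and motifs were set after the table was read. The values in every library are given for the lowest and highest gene of each structural group, all genes not called lower, the genes nearest 10% of wild type and the 5 most and 5 least abundant per length. A few other genes are added as examples, chosen after their values were seen.

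Transcript length and GC content come from the longest GENCODE transcript on GRCm38 (all 67 genes matched by identifier), promoter windows from RefSeq on GRCm38.p6, and shared 31-base words from the GENCODE transcripts, where over 20% were shared in 4 of the 67 genes. Alternatives were scaling by library totals, by the upper quartile or on the spermatocyte genes, removal of each library's GC trend, a filter of 10 in every library or merely of 1 in 1 library, pseudocounts of 0.1 and 10, a fit of only the genotypes compared, no mean-variance trend, a stricter adjusted p (0.05), a minimum fold of 2, and leaving out each library.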

Additional observations from a re-analysis of the deposited data

How the results depend on the processing

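The number of axoneme genes called lower in *10xBulge* against wild type stayed within 1.5 times of 28. It ran from 19 to 34 under the scalings, filters and fits and from 19 to 37 when a library was left out, and 0 were called higher under each of them. The median log2 fold change of -1.07 moved to -0.69 with equal library totals, and to between -1.38 (without N5) and -0.82 (without N6) when a library was left out. In *10xPerf* against wild type, 0.28 moved to 0.42 with equal totals, 0.78 when centred on the spermatocyte genes and 0.37 without the GC trend, and to between 0.12 and 0.55 when a library was left out. In *10xBulge* against *10xPerf*, the median of -1.29 moved to -1.59 when centred on the spermatocyte genes and to between -1.66 and -1.04 when a library was left out, and the number called lower, 38, ran from 16 to 44 when a library was left out and from 29 to 50 (without the GC trend) under the other settings. The number of lost genes was 2 with equal totals, 2 with the filter of 10 in every library, which *Cfap97d1* and *Cfap100* cannot pass, and 3 to 8 when a library was left out. The cause of the other changes was not tested. The median of all genes for *10xBulge* with wild type as reference, -0.03, became 0.35 with equal totals and 0.17 when centred on the spermatocyte genes.

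The sign changed only in genes that were not called. With equal totals *Cfap46* was at 0.32, *Cfap298* at 0.30, *Rsph1* at 0.17, *Dnaaf6* at 0.36, *Drc3* at 0.14, *Dnaaf5* at 0.057 and *Cfap54* at 0.038, and centring on the spermatocyte genes put *Cfap46* at 0.13, *Cfap298* at 0.11 and *Dnaaf6* at 0.17. *Dnaaf6* was at 0.29 without the GC trend. When a library was left out, the log2 fold change ran from -0.39 to 0.25 in *Cfap46*, -0.997 to 0.045 in *Cfap65*, -0.56 to 0.39 in *Cfap298*, -1.38 to 0.040 in *Rsph3a*, -0.62 to 0.72 in *Rsph3b*, -2.06 to 0.12 in *Rsph6a*, -0.70 to 0.28 in *Rsph1*, -0.57 to 0.52 in *Dnaaf6*, -0.72 to 0.22 in *Drc3*, -1.22 to 0.22 in *Dnaaf4*, -1.57 to 0.074 in *Rsph4a* and -0.70 to 0.0074 in *Cfap54*. No paired analysis was made because the sample titles link no library to a library of another genotype.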
